A study of Mus musculus with 8 samples.

Results

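The SLAM family receptors considered here were 7 genes of mouse macrophages, Slamf1, Slamf7, Slamf8, Slamf9, Cd48, Cd84 and Ly9, out of 49315 genes in the count table. They were taken by symbol through their Ensembl identifiers, and the family was chosen on values of the same contrast that is described below, so the members' own differences are given as a description with no test. All libraries came from bone marrow-derived macrophages (BMDMs), primary cells grown from C57BL/6 mouse marrow with 10 ng per ml of macrophage colony-stimulating factor (M-CSF). The cells had been transfected with 1 of 2 gapmeRs, the first directed at MAARS and the second a negative control, and the labels give 25 nM for each. A gapmeR is a short antisense oligonucleotide that directs RNase H to cut its target RNA. MAARS is a macrophage long non-coding RNA, annotated as Gm14461. The control gapmeR libraries carry the replicate numbers 2, 5, 6 and 7 and the MAARS gapmeR libraries 9, 11, 13 and 15, so each group had 4 libraries of ribodepleted total RNA, and no label says whether they came from separate animals. P-values below therefore measure only the spread between these samples, which may be technical. A single MAARS gapmeR was used, and whether the differences come from the loss of MAARS or from that oligonucleotide cannot be told apart.

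SLAM family receptors are immunoglobulin superfamily proteins of blood cells. Most of them bind another copy of themselves on a neighbouring cell, whereas CD48 binds CD244. Their cytoplasmic tails carry tyrosine motifs that, once phosphorylated, recruit either the small adaptors SAP and EAT-2 or inhibitory phosphatases. SLAMF8 and SLAMF9 have short tails without these motifs, and CD48 is held in the membrane by a lipid anchor. In macrophages, SLAMF1 is known to enter phagosomes with bacteria, SLAMF7 to take part in the engulfment of target cells together with the integrin Mac-1, and SLAMF8 to restrain the phagocyte NADPH oxidase.

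The targeted RNA was checked first. Levels are given as CPM, in which counts are divided by library size and by TMM factors, the latter evening out differences in RNA composition between libraries. MAARS had 13.1 ± 1.36 CPM (SD, n = 4) in control gapmeR cells and 6.82 ± 0.844 in MAARS gapmeR cells, a decrease of 48.1% (exact permutation test, two-sided, p = 0.0286, the smallest that 4 against 4 libraries allow). Library totals were 19287279 to 20567123 counts in the control group and 20839671 to 24541205 in the MAARS gapmeR group, so every MAARS gapmeR library was the deeper. Among the 13051 genes that passed a filter on low counts, 45.4% were called at an adjusted p under 0.05 (edgeR's quasi-likelihood test), 21.3% as higher and 24.0% as lower in MAARS gapmeR cells. The share of genes with all 4 MAARS gapmeR libraries below all 4 control libraries was 22.8%, and 19.3% had them all above.

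Macrophage markers were abundant: the 8 genes Adgre1, Csf1r, Cd68, Itgam, Fcgr1, Mertk, Lyz2 and Cd14 summed to between 13836 and 17118 CPM in control libraries and between 17011 and 20241 CPM in MAARS gapmeR libraries. Most of this sum was Lyz2 (mean 9402 and 13170 CPM), while Fcgr1 went from 808 to 190 CPM and Cd68 from 2162 to 1710 CPM. SLAM receptors are also found on T cells, B cells, NK cells and other blood cells, whose markers were looked at in the same libraries. The T cell gene Cd3g and the NK cell gene Gzma had no count in any library. The T cell list of 7 genes summed to 66.2 to 85.6 CPM in control and 40.9 to 51.5 CPM in MAARS gapmeR libraries, nearly all of it Cd4 (mean 74.0 and 46.2 CPM). The lists of B cells (4 genes, at most 2.46 CPM), NK cells (5 genes, at most 0.217 CPM), dendritic cells (6 genes, at most 2.76 CPM) and mast cells and basophils (5 genes, at most 2.00 CPM) stayed low in both groups. Neutrophil markers (5 genes) summed to 34.7 to 104 CPM in control and 35.3 to 54.8 CPM in MAARS gapmeR libraries. Most of this was Ngp (mean 54.9 and 40.4 CPM), while Ly6g had at most 8 reads in any library. Platelet markers (4 genes) summed to 235 to 313 CPM and 503 to 604 CPM, most of it Pf4. The part of these cells in the receptor differences was not tested. In bulk RNA, fewer cells of a type and less RNA per cell cannot be told apart.

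All 7 genes lie on chromosome 1 (GRCm38, GENCODE M21 gene models). Ly9 (chr1:171588624-171607410, minus strand), Slamf7 (chr1:171632403-171653035, minus), Cd48 (chr1:171682009-171705258, plus), Slamf1 (chr1:171767127-171801184, plus) and Cd84 (chr1:171839697-171890718, plus) form a cluster with the other SLAM genes Cd244a and Slamf6, which spans 394 kb. Slamf9 (chr1:172475358-172478575, plus) and Slamf8 (chr1:172581758-172590568, minus) lie 522 kb further along, in a stretch of 115 kb. Exons of Slamf7 overlap Gm37787 on the opposite strand over 423 bases, 9.24% of its exon length. The strand setting of the counting is not given in the sources used here, so reads of the 2 genes in that stretch cannot be separated. The other members shared no exonic base with another gene.

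The sequence just before the RefSeq start of transcription is shown for Slamf8, Slamf9 and Slamf7, the members with the lowest log2 fold changes. RefSeq promoter windows (GRCm38.p6) were matched for 8 of the 9 family genes, all but Ly9, and only the 250 bases before each start were searched, on both strands. The letters searched were GAAANNGAA, the core of the interferon-stimulated response element, TTCNNNGAA, the STAT site called GAS, and AGGAAGT, a site of the macrophage factor PU.1 and its relatives. Matches are printed in capitals, 5′ to 3′ on the strand of the gene. The last 2 bases of the Slamf9 window and 8 bases of the Slamf7 window lie in exons of the GENCODE models of the same genes. The Slamf7 window lies inside the GENCODE gene body given above, which starts at chr1:171653035 on the minus strand. The bases before that GENCODE start were not searched.
Slamf8 (chr1:172590569-172590818, minus strand): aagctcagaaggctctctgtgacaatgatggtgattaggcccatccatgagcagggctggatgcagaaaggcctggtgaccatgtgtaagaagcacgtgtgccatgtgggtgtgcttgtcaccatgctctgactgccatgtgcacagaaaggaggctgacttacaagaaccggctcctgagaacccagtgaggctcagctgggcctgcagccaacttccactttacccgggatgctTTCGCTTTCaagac
Slamf9 (chr1:172475110-172475359, plus strand): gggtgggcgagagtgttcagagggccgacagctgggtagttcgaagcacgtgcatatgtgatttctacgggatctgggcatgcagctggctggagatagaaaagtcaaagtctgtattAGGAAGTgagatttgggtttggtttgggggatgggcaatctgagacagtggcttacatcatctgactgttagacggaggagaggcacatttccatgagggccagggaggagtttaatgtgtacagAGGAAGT
Slamf7 (chr1:171649000-171649249, minus strand): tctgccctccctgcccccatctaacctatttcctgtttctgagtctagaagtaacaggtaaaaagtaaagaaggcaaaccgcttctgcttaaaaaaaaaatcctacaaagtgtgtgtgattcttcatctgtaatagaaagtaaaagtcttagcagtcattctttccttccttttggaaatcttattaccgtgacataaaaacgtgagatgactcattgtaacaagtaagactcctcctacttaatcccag
The Slamf8 window held 1 match to the interferon element core, TTCGCTTTC in the reverse orientation, between 14 and 6 bases before the start. The Slamf9 window held 2 matches to AGGAAGT, the nearer ending 1 base before the start. The Slamf7 window held none of the motifs. Of the other family genes, Cd84 held 1 match to the interferon element core between 29 and 21 bases before its start, and no family gene held TTCNNNGAA. The matched motifs did not overlap. Among 32851 promoter windows of the same length, 7.13% held GAAANNGAA, 7.02% TTCNNNGAA and 7.69% AGGAAGT. These matches describe letters and do not show that a factor was bound.

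Of the 7 receptors, 6 passed the filter on low counts, and each of these 6 had all MAARS gapmeR libraries below all control libraries, against the 22.8% of all genes given above. The contrast had chosen the family, so nothing is read from that count, nor from the members' median and ranks given below. The decreases were unequal. Slamf8, Slamf9 and Slamf7 had log2 fold changes from -3.20 to -1.19, Ly9 an intermediate one, and Cd48 and Cd84 small ones near -0.2. The median log2 fold change was -0.88 over the 6 genes and 0.01 over all genes tested. Slamf1 was at the limit of detection in both groups.

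**Figure D1:**
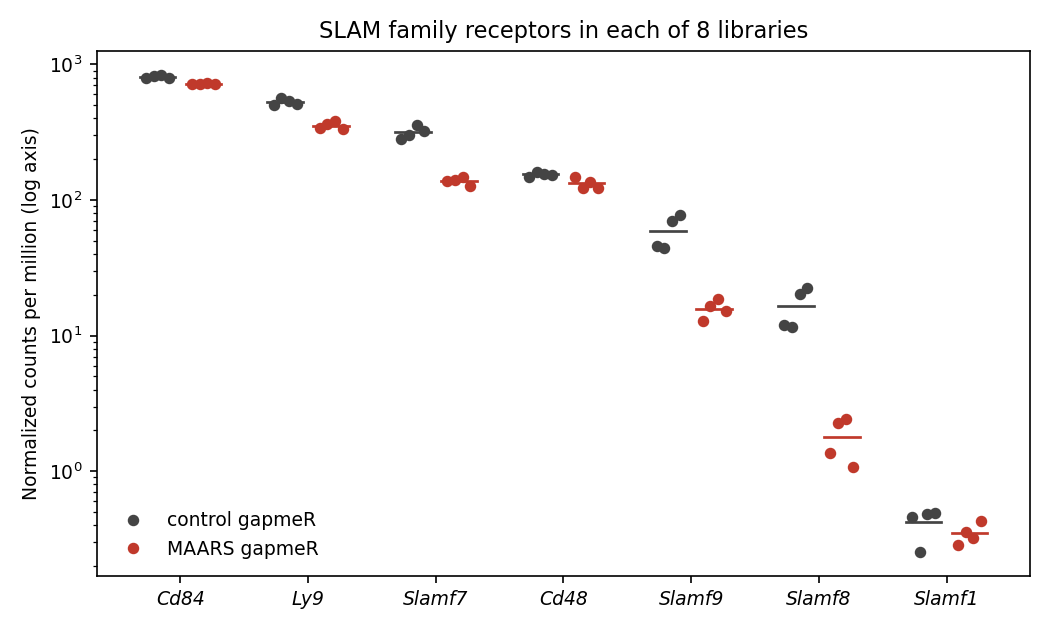
TMM-normalized CPM (log axis) of the 7 receptors in each library, control gapmeR in grey and MAARS gapmeR in red, with lines at the means of 4 libraries. On the log axis Slamf8 shows the widest gap between the groups, although not in CPM. Cd48 shows the narrowest of those without overlap (0.505 CPM), and the Slamf1 libraries overlap.

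Slamf8 encodes a receptor that lowers oxidase activity and migration of phagocytes. It was read at 12.0, 11.5, 20.4 and 22.4 CPM in control gapmeR replicates 2, 5, 6 and 7, and at 1.37, 2.27, 2.44 and 1.08 CPM in MAARS gapmeR replicates 9, 11, 13 and 15. Control replicates 6 and 7 were the higher pair, and the lowest control library was still 9.08 CPM above the highest MAARS gapmeR library. The log2 fold change was -3.20 ± 0.29 (SE, n = 4 per group), and the MAARS gapmeR level was 10.8% of the control level. Of the 13051 genes tested, 45 had a lower log2 fold change. The counts behind these values were 226 to 457 per control library and 25 to 57 per MAARS gapmeR library, which makes Slamf8 the least precisely measured of the 6.

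Slamf9 encodes the other short-tailed receptor, which is found on macrophages and dendritic cells. Its levels were 45.6, 44.2, 70.4 and 77.2 CPM in control replicates 2, 5, 6 and 7, and 12.8, 16.7, 18.5 and 15.2 CPM in MAARS gapmeR replicates 9, 11, 13 and 15. The same control pair, 6 and 7, was the higher, and the groups were separated by 25.7 CPM. The log2 fold change was -1.91 ± 0.19 (SE, n = 4 per group), a decrease of 73.4%. Without control replicates 6 and 7, left out after the values had been seen, it was -1.51.

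Slamf7, also called CRACC or CD319, was read at 282, 302, 359 and 321 CPM in the control replicates 2, 5, 6 and 7, and at 138, 141, 148 and 128 CPM in MAARS gapmeR replicates 9, 11, 13 and 15. No library of one group came near the other group, with 133 CPM between them. The log2 fold change was -1.19 ± 0.07 (SE, n = 4 per group), a decrease of 56.1%. The highest control library was 1.27 times the lowest for Slamf7, as against 1.95 times for Slamf8 and 1.75 times for Slamf9.

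Ly9 encodes SLAMF3, a receptor that binds itself. The control replicates 2, 5, 6 and 7 had 498, 561, 536 and 508 CPM, and MAARS gapmeR replicates 9, 11, 13 and 15 had 338, 361, 382 and 334 CPM. The groups were 116 CPM apart. The log2 fold change was -0.57 ± 0.06 (SE, n = 4 per group), a decrease of 32.7%, and 960 of the 13051 genes tested had a lower one.

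Cd84, which encodes SLAMF5, had the most counts of the family. It was read at 793, 826, 841 and 795 CPM in control replicates 2, 5, 6 and 7, and at 718, 712, 730.0 and 721 CPM in MAARS gapmeR replicates 9, 11, 13 and 15. The libraries within each group lay close together, with a highest-to-lowest ratio of 1.06 in control and 1.03 in MAARS gapmeR cells. The log2 fold change was -0.18 ± 0.04 (SE, n = 4 per group), a decrease of 11.5%, and it was -0.11 with upper-quartile in place of TMM factors.

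Cd48 encodes SLAMF2, the lipid-anchored ligand of CD244 and CD2. It was read at 148, 160.2, 156 and 153 CPM in control replicates 2, 5, 6 and 7, and at 148, 123, 137 and 122 CPM in MAARS gapmeR replicates 9, 11, 13 and 15. The lowest control library and MAARS gapmeR replicate 9 were only 0.505 CPM apart, so the separation of the groups rests on a difference far smaller than the spread within either. The log2 fold change was -0.22 ± 0.06 (SE, n = 4 per group), a decrease of 14.2%. Under RLE or upper-quartile factors, DESeq2's size factors, or equal depth in all libraries, the Cd48 libraries of the groups overlapped, while the direction stayed the same.

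Slamf1, the founding receptor of the family and a sensor of bacteria in phagosomes, had 9, 5, 9 and 10 reads in control replicates 2, 5, 6 and 7 and 6, 9, 7 and 10 reads in MAARS gapmeR replicates 9, 11, 13 and 15. The libraries of the groups overlapped, and Slamf1 did not pass the filter on low counts. Summed over 4 libraries, 33 control reads stood against 32 MAARS gapmeR reads, a depth-corrected ratio of 0.83 with a 95% interval from 0.494 to 1.39 that covers counting error only. A change of the size seen for Cd48, Cd84 or Ly9 was not detectable for Slamf1 at this depth.

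Levels of different genes were compared per kb of exon, with every base counted that is exon in any annotated transcript of the gene. Which transcripts were expressed was not determined. An error in a gene's length would shift all its libraries together, so the order between genes depends on that length. By CPM alone, Cd84 (814 ± 23.4) stood above Ly9 (526 ± 28.7) in control cells. Per kb, Ly9 was the highest family gene in control gapmeR cells at 159 ± 8.66 CPM per kb (SD, n = 4). Cd48 at 130 ± 4.26 and Cd84 at 130 ± 3.74 CPM per kb followed, and their libraries overlapped. Next came Slamf7 at 69.0 ± 7.19, Slamf9 at 45.2 ± 12.9 and Slamf8 at 5.39 ± 1.83 CPM per kb, each without overlap with its neighbours in the order. The other SLAM genes Cd244a and Slamf6 followed at 2.32 ± 0.631 and 0.161 ± 0.0393 CPM per kb, and Slamf1 was the lowest at 0.0688 ± 0.0184 CPM per kb.
In MAARS gapmeR cells the first 3 places were not resolved, since the libraries of Cd84 at 115 ± 1.20, Cd48 at 111 ± 10.2 and Ly9 at 107 ± 6.67 CPM per kb overlapped. Slamf7 (30.3 ± 1.87 CPM per kb) and Slamf9 (12.0 ± 1.85 CPM per kb) kept the 4th and 5th places. Slamf8, at 0.581 ± 0.215 CPM per kb, overlapped with Cd244a at 0.942 ± 0.188 CPM per kb. Summed over the 9 family genes, the level was 541 ± 27.4 CPM per kb in control and 377 ± 15.1 CPM per kb in MAARS gapmeR cells. Within that sum the share of Slamf7 was 12.7% ± 0.747 in control and 8.03% ± 0.247 in MAARS gapmeR cells, and that of Slamf9 8.31% ± 2.12 and 3.18% ± 0.451 (SD, n = 4). The share of Cd84 was 24.0% ± 0.881 and 30.5% ± 1.08, and that of Cd48 24.0% ± 0.902 and 29.5% ± 2.07, while the libraries of Ly9 overlapped (29.4% ± 1.49 and 28.4% ± 1.21).

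**Figure D2:**
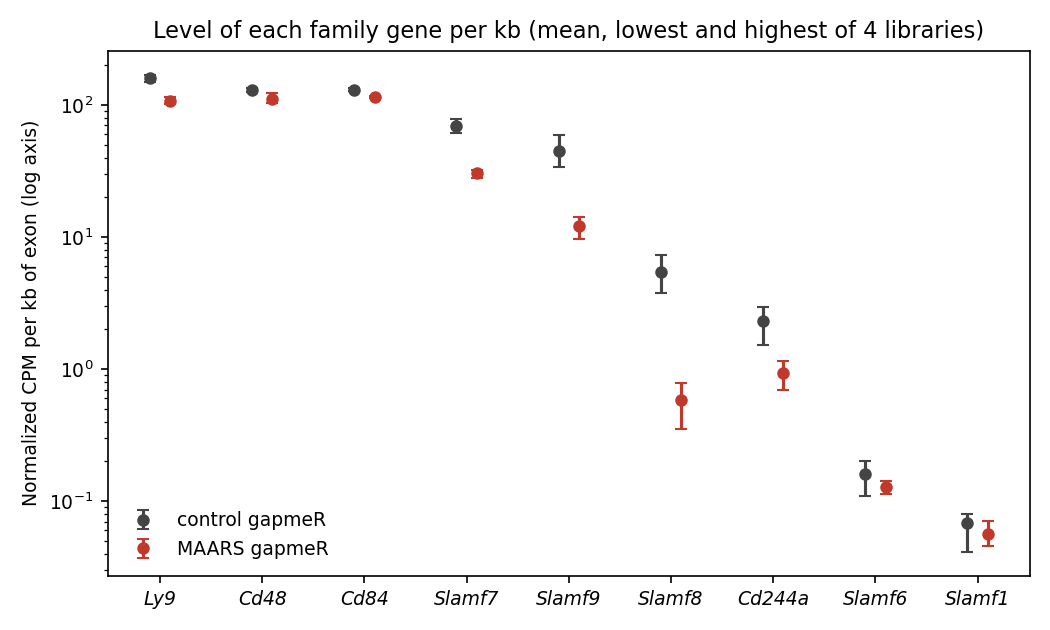
Mean TMM-normalized CPM per kb of exon (log axis) of the 9 SLAM family genes, with bars from the lowest to the highest of 4 libraries, control gapmeR in grey and MAARS gapmeR in red. Ly9 leads in control cells at 159 CPM per kb, and Ly9, Cd48 and Cd84 overlap in MAARS gapmeR cells.

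The 2 SLAM receptors outside the chosen set were tested over all genes. Cd244a, which encodes 2B4, the receptor for CD48, had 7.42, 10.3, 14.3 and 13.2 CPM in control replicates 2, 5, 6 and 7, and 3.41, 4.77, 4.55 and 5.63 CPM in MAARS gapmeR replicates 9, 11, 13 and 15. The groups did not overlap, and Cd244a fell by 1.29 ± 0.21 on the log2 scale (adjusted p = 0.000425, edgeR). Without control replicates 6 and 7 the log2 fold change was -0.95 (adjusted p = 0.00571, edgeR), and without control replicates 2 and 5 it was -1.57 (4.77e-05). The gene body of Cd244a spans Ly9, although no exon of Cd244a overlaps one of Ly9. Slamf6, whose libraries overlapped, had 1.18 to 2.19 CPM in control and 1.23 to 1.55 CPM in MAARS gapmeR cells, with a log2 fold change of -0.34 ± 0.22 that did not pass the test (adjusted p = 0.237, edgeR). The related receptor Cd2 had at most 2 reads in any library and was not tested.

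Of the genes of the small adaptors SAP and EAT-2, only the EAT-2 gene Sh2d1b1 was expressed above the filter. The SAP gene Sh2d1a had no read in any library and its relative Sh2d1b2 at most 1. Sh2d1b1 had 3.12, 3.26, 5.25 and 4.52 CPM in control replicates 2, 5, 6 and 7, and 3.03, 2.23, 2.39 and 1.82 CPM in MAARS gapmeR replicates 9, 11, 13 and 15. It fell by 0.77 ± 0.21 on the log2 scale (adjusted p = 0.012, edgeR), with its 2 highest control libraries again replicates 6 and 7. Without those libraries the log2 fold change was -0.44 and no longer passed (adjusted p = 0.164, edgeR).

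Genes of the signalling next to the tails moved in both directions. Of the 11 adaptor and proximal signalling genes, 9 were tested, 3 rose, 5 fell and 1 did not pass, with a median log2 fold change of -0.15, where 21.3% of all genes tested were called higher and 24.0% lower. Ptpn6, which encodes the inhibitory phosphatase SHP-1, fell by 0.55 ± 0.05 on the log2 scale from 342 ± 14.9 to 234 ± 14.2 CPM (adjusted p = 1.68e-05, edgeR). Csk, the kinase that restrains Src family kinases, fell by 0.38 ± 0.06 (adjusted p = 0.000635), as did the phosphatase gene Ptpn11 by 0.21 ± 0.04 (adjusted p = 0.00205) and the adaptor gene Grb2 by 0.15 ± 0.04 (adjusted p = 0.0166). Fyn, the Src family kinase that SAP brings to the receptors, rose by 0.45 ± 0.07, from 34.2 ± 3.14 to 46.7 ± 2.10 CPM (adjusted p = 0.000334). Plcg1, a phospholipase gene, rose by 0.73 ± 0.07 (adjusted p = 1.49e-05) and Inpp5d, which encodes the lipid phosphatase SHIP-1, by 0.16 ± 0.05 (adjusted p = 0.0145). Plcg2, the other phospholipase, was at -0.12 ± 0.05 on that scale and did not pass (adjusted p = 0.0592, edgeR). Grb2 did not pass under upper-quartile factors, without MAARS gapmeR replicate 11, or without control replicates 6 and 7 together (adjusted p = 0.111, 0.0525 and 0.0676, edgeR), nor did Inpp5d without control replicates 2 and 5 (0.0886). Plcg2 passed at equal depth (adjusted p = 0.0416, edgeR) and without control replicate 7 (0.033).

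**Figure D3:**
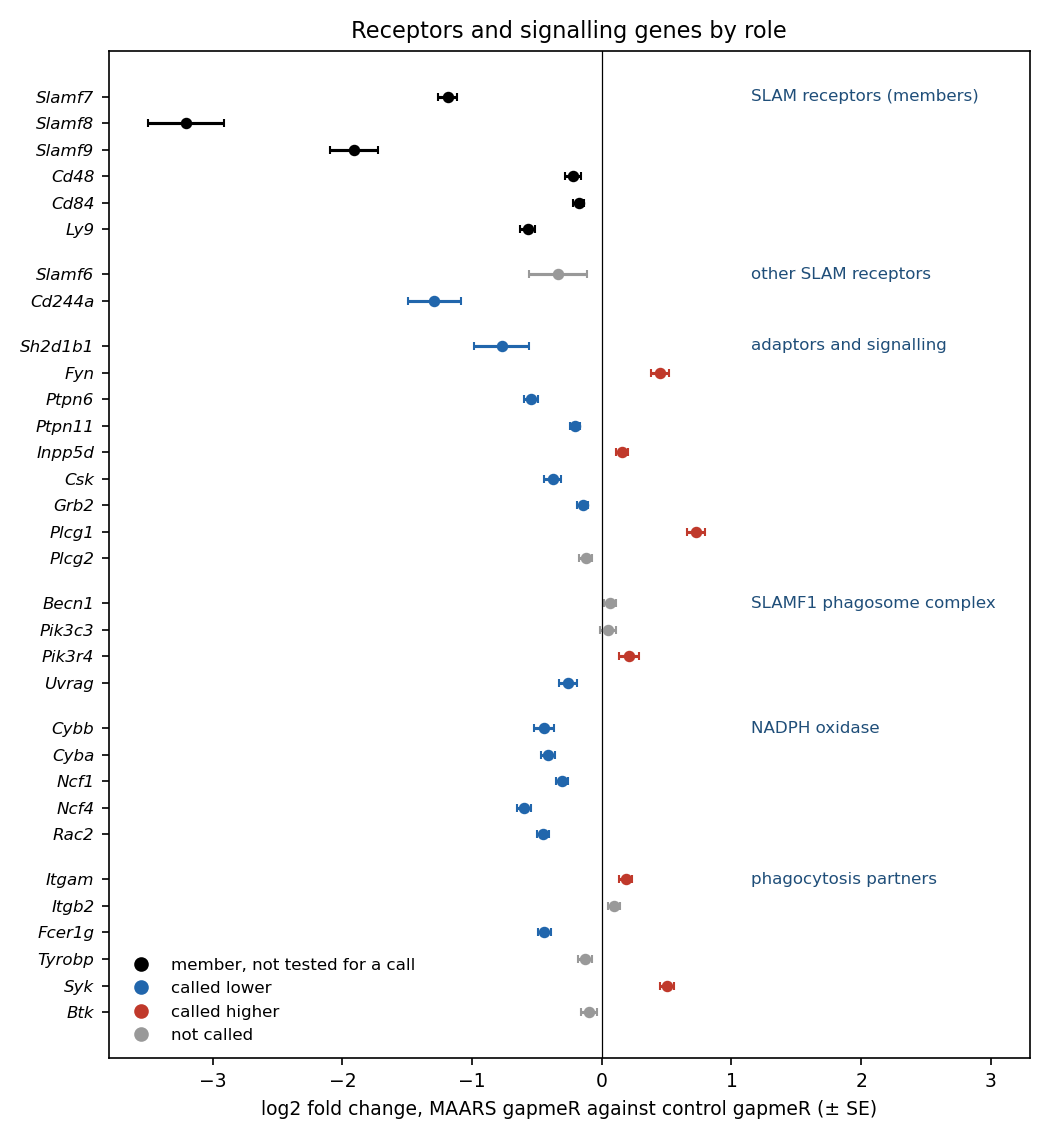
Log2 fold change of MAARS gapmeR against control gapmeR with its standard error, with 6 SLAM receptors in black (no call given). The other SLAM genes, signalling genes and partners tested are blue where called lower, red where called higher and grey where not called. The 5 NADPH oxidase genes shown lie below 0, while the adaptor and signalling genes lie on both sides.

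The intracellular partners of 3 receptors were read in the same way. The SLAMF1 phagosome complex consists of Becn1, Pik3c3, Pik3r4 and Uvrag, which form a lipid kinase, and its median log2 fold change was 0.06. Uvrag fell by 0.26 ± 0.07 on the log2 scale (adjusted p = 0.00994, edgeR), and Pik3r4 rose by 0.21 ± 0.08 (adjusted p = 0.0407, edgeR), although their libraries overlapped between groups. The Pik3r4 call was lost when any of control replicates 2, 6 and 7 or MAARS gapmeR replicates 9, 11 and 15 was left out (adjusted p from 0.0553 to 0.11, edgeR), and that of Uvrag without control replicates 6 and 7 together (adjusted p = 0.116, edgeR). Becn1 and Pik3c3 had log2 fold changes of 0.06 ± 0.04 and 0.05 ± 0.06 and did not pass (adjusted p = 0.25 and 0.567, edgeR), although Becn1 did under upper-quartile factors (0.0304). Exons of Becn1 overlap Cntd1 over 43.9% of their length and those of Uvrag overlap Gm45187 over 17.6%, both on the opposite strand, and the direction of Pik3c3 turned when control replicate 6 or MAARS gapmeR replicate 9 was left out.

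The NADPH oxidase, which SLAMF1 is known to favour and SLAMF8 to restrain, makes superoxide in the phagosome. The 5 genes given here, which are not the full list of its subunits, fell, with a median log2 fold change of -0.45 against 0.01 over all genes tested, and 24.0% of all genes were called lower. Cybb, the catalytic subunit, fell by 0.45 ± 0.08 on the log2 scale from 1354 ± 144 to 994 ± 65.6 CPM (adjusted p = 0.00077, edgeR). Its membrane partner Cyba fell by 0.41 ± 0.06 (adjusted p = 0.000135), and of the cytosolic subunits Ncf4 fell by 0.60 ± 0.05 (adjusted p = 8.42e-06) and Ncf1 by 0.31 ± 0.05 (adjusted p = 0.000359). The small GTPase gene Rac2 fell by 0.45 ± 0.05 (adjusted p = 2.35e-05). Exons of Ncf1 overlap Gtf2ird2 on the opposite strand over 11.1% of their length.

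Of the 6 partners of SLAMF7 in phagocytosis, 2 rose, 1 fell and 3 did not pass, beside 21.3% of all genes tested called higher and 24.0% lower, and their median log2 fold change was 0.00. The kinase gene Syk rose by 0.50 ± 0.05 on the log2 scale, from 373 ± 21.3 to 529 ± 19.3 CPM (adjusted p = 2.17e-05, edgeR), and Itgam, the alpha chain of Mac-1, by 0.18 ± 0.05 (adjusted p = 0.0107, edgeR). Exons of Itgam overlap those of Gm49368 on the same strand over 68.7% of their length, so its counts are uncertain, and the call was lost without control replicates 6 and 7 (adjusted p = 0.119, edgeR). The signalling chain gene Fcer1g fell by 0.44 ± 0.05, from 688 ± 43.3 to 506 ± 2.65 CPM (adjusted p = 4.72e-05, edgeR). Itgb2 (0.09 ± 0.05), Tyrobp (-0.13 ± 0.06) and Btk (-0.10 ± 0.06) did not pass, with adjusted p of 0.138, 0.081 and 0.215 (edgeR). Each passed in 1 alternative, Itgb2 under upper-quartile factors, Tyrobp without control replicate 7 and Btk without MAARS gapmeR replicate 9 (adjusted p = 0.0152, 0.0465 and 0.0451, edgeR).

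The protein-coding genes around the receptors were then read for position. Within 250 kb of a member lay 32 protein-coding genes, among them Cd244a and Slamf6. Of these, 21 passed the filter on low counts, 6 fell, 2 rose and 13 did not pass, where 24.0% of all genes tested were called lower and 21.3% higher, and their median log2 fold change was -0.09. Without the SLAM genes Cd244a and Slamf6 it was 0.03 over 19 genes, with 5 that fell. The gene nearest to Slamf9, Igsf9, which encodes another immunoglobulin superfamily protein and starts 3.21 kb past the end of Slamf9 on the same strand, fell by 2.09 ± 0.37 on the log2 scale (adjusted p = 0.000797, edgeR) from 4.34 ± 2.06 to 1.00 ± 0.37 CPM. F11r, which encodes a junctional adhesion molecule and lies 124 kb from Ly9, fell by 1.47 ± 0.23 (adjusted p = 0.000439), from 2.82 ± 0.539 to 1.01 ± 0.274 CPM. Both were low in absolute terms. Over 17 alternative analyses, Igsf9 ranged from -2.59 to -1.35 on the log2 scale and F11r from -1.62 to -1.30, and both kept their calls.
On the far side of F11r, Nectin4 fell by 0.83 ± 0.08 (adjusted p = 1.86e-05) and Arhgap30 by 0.38 ± 0.05 (adjusted p = 6.42e-05). Between the clusters, Igsf8 fell by 0.24 ± 0.05 (adjusted p = 0.00398), while the gamma-secretase gene Ncstn rose by 0.17 ± 0.05 (adjusted p = 0.0203), both by edgeR. Inside the first cluster, Gm10521, 4.95 kb past the end of Cd84, rose by 0.34 ± 0.11 (adjusted p = 0.0317, edgeR). The Ncstn call was lost when control replicate 7 or MAARS gapmeR replicate 9 or 13 was left out (adjusted p from 0.0508 to 0.0579, edgeR) and without control replicates 6 and 7 together (0.0911). That of Gm10521 was lost without control replicate 5 or MAARS gapmeR replicate 9 or 15 (adjusted p from 0.0853 to 0.0902, edgeR) and without control replicates 2 and 5 together (0.171). Genes with differences near 0 stood among them: the log2 fold change of Tagln2, between Slamf9 and Slamf8, was -0.09 ± 0.06 (adjusted p = 0.197, edgeR), and that of Copa, between the clusters, was 0.03 ± 0.04 (adjusted p = 0.611, edgeR).

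**Figure D4:**
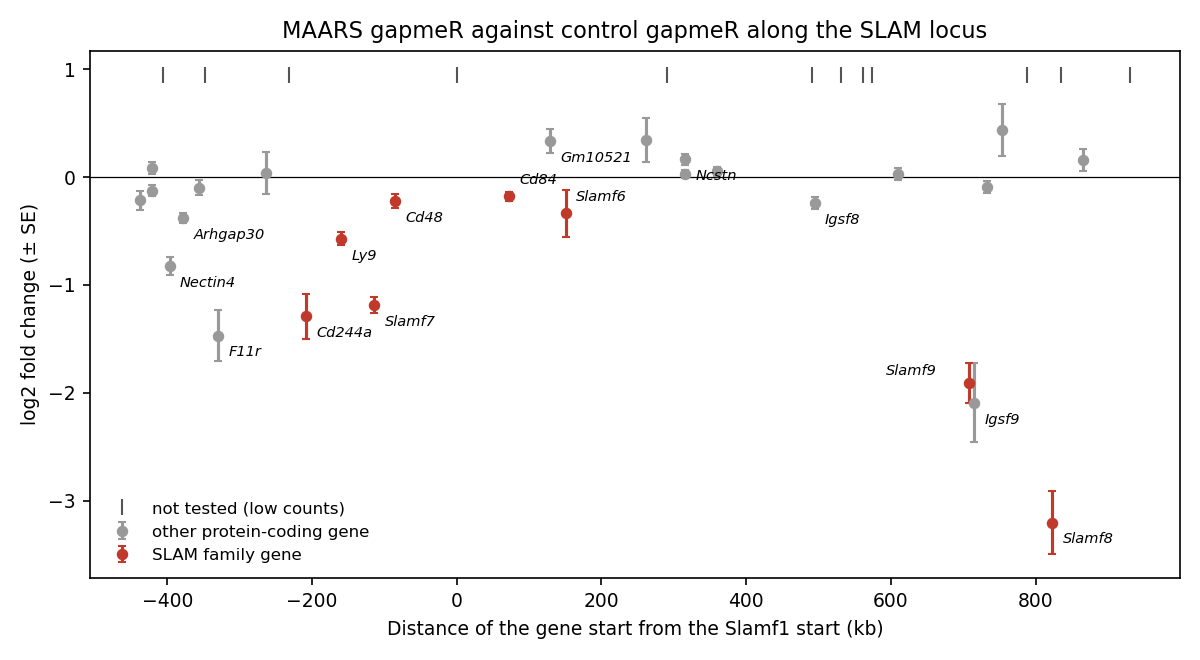
Log2 fold change with its standard error for the genes tested around the SLAM loci, by the distance of their start from that of Slamf1 in kb, with SLAM family genes in red and other protein-coding genes in grey, and ticks at genes not tested. Slamf9, Igsf9 and Slamf8 reach -1.91, -2.09 and -3.20, and the genes between Igsf9 and Slamf8 that were tested, Tagln2 and Cfap45, have values of -0.09 and 0.44.

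The members' profiles over the 8 libraries were compared with those of all genes tested, as the root mean square difference of log2 CPM centred on each gene's mean. This measure is small for a pair of genes that share the direction, size and library pattern of their difference, and it is a description over 8 points that share libraries and depth. The nearest genes depend on the libraries: of the 12 named below, 6 to 9 were again among the nearest when 1 library was left out. Because the measure is not scaled, it largely follows the size of the log2 fold changes. Cd48 and Cd84 (log2 fold changes of -0.22 and -0.18) were the pair of members most alike (0.08). Slamf8 (-3.20) was the farthest from the others, at 0.69 from Slamf9 and 1.05 to 1.56 from the rest. The genes nearest to Slamf8 were Phf11b (0.26) and Cmpk2 (0.28), which encodes a mitochondrial nucleotide kinase. Their levels went from 178 to 24.2 CPM and from 286 to 38.9 CPM. Slamf9 was nearest to Il18bp (0.12), the gene of a secreted inhibitor of interleukin-18, and Tmem171 (0.13). Slamf7 was nearest to Pttg1 (0.07), the gene of securin, and 5430427O19Rik (0.07). Ly9 was nearest to Cd53 (0.04), a tetraspanin gene of blood cells, and the cell cycle inhibitor gene Cdkn1a (0.04). Cd48 was nearest to Tstd2 (0.02) and to Ly96 (0.04), the gene of the TLR4 co-receptor MD-2, and Cd84 to Hnrnph2 (0.01) and Man1b1 (0.01).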

How the data were processed

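RNA-Seq of BMDMs was used, with 4 control gapmeR and 4 MAARS gapmeR libraries grouped by their titles. Per the submitters' processing notes, the authors used Trimmomatic 0.36, STAR 2.5.2b and featureCounts of Subread 1.5.2, and the deposited values are raw counts per gene on GRCm38. The strand setting and the handling of multimapping reads are not given in the sources used here. Counts were analysed with R 4.3.3 and edgeR 4.0.16: filterByExpr (minimum count 10, minimum total count 15), TMM factors, glmQLFit and glmQLFTest, two-sided, with Benjamini-Hochberg adjustment over 13051 genes and a threshold of 0.05. Depth was 19287279 to 24541205 counts per library, which limits the precision. Replicates differed by more than sampling noise (chi-square of 4.24 to 15.1 per gene). Over all genes tested, control replicates 6 and 7 were the closest pair (4.24). They differed from control replicates 2 and 5 by 9.75 to 15.1, so their pairing is not particular to the receptors. GENCODE M21 gave positions and exon lengths for 99.5% of the 49315 genes. The fit was tested on simulated data.

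The members and the gene lists were chosen with earlier results of these data known. The genes named were MAARS, the 7 members, the genes of the lists (some of which are not reported here, nor counted in their lists), the called neighbours, and the 2 genes nearest to each member in profile (prior count 2); Tagln2 and Copa were added after their values had been seen. Alternatives were RLE and upper-quartile factors, DESeq2 1.42.0, limma-voom (limma 3.58.1), other filters, equal depth and each library left out, and, added after the data had been seen, control replicates 6 and 7 or 2 and 5 left out.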

Additional observations from a re-analysis of the deposited data

Results flagged for a closer look

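In 85 groups of 4 libraries, the highest or lowest library was compared with the others by Dixon's ratio at its 95% critical value, and 4 groups stood out, where chance flags about 1 in 20. Slamf1 had 0.255 CPM in control gapmeR replicate 5, against 0.461 to 0.491 CPM in the other control libraries, a difference of a few reads. Pik3c3 had 45.6 CPM in control gapmeR replicate 6, against 51.2 to 52.1 CPM in the others. Cyba had 658 CPM in MAARS gapmeR replicate 13, against 611 to 614 CPM in the others, all below the control libraries. Igsf9 had 1.55 CPM in MAARS gapmeR replicate 11, against 0.780 to 0.899 CPM in the others.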

How the results depend on the processing

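There were 17 alternatives, 2 of them added after the data had been seen. Over these, the log2 fold changes of all 6 members that passed the filter kept their sign. Slamf8 ranged from -3.57 to -2.71, Slamf9 from -2.22 to -1.51 and Slamf7 from -1.29 to -1.08. Ly9 ranged from -0.61 to -0.51, Cd48 from -0.28 to -0.16 and Cd84 from -0.19 to -0.11. The values that moved by more than 1 SD between replicates were Slamf9 at -1.51 without control replicates 6 and 7 and Cd84 at -0.11 under upper-quartile factors. Those factors shifted the median of all genes by 0.06 and turned the calls to 3622 higher and 2379 lower, from 2782 and 3137. The number of neighbouring genes called higher ranged from 0 to 3 with 1 library left out and was 1 without control replicates 6 and 7. Over 33 other genes, 3 of 561 values turned sign, none of them past the test, all of Pik3c3, which ranged from -0.0042 to 0.078 with 1 library left out and was -0.0071 without control replicates 6 and 7. The cause was not tested. A further 22 values lost and 6 gained the call. No paired analysis was possible because the groups share no replicate number. Depth limits Slamf1, with 5 to 10 reads per library.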
